A study of Homo sapiens with 4 samples.

Results

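The 10 genes described here encode receptors for adenosine and ATP and the enzymes that break purine nucleotides down, out of 56638 gene rows in the count table. They are the adenosine receptors ADORA2A and ADORA2B, the ATP-gated channels P2RX4 and P2RX7, the extracellular enzymes ENTPD1 and NT5E, and the intracellular enzymes AMPD2, AMPD3, ADA and PNP. All 10 were found by symbol. They were selected on function with earlier results of this same comparison known, and by no threshold on a value. Their differences between groups are therefore given as a description, without p-values, and support nothing further.

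The RNA came from MV4;11, a human cell line established from acute myeloid leukaemia, in which KMT2A is fused to AFF1 and FLT3 carries an internal tandem duplication. Parental MV4;11 cells, grown in RPMI, received either vehicle (2 libraries) or CU-T12-9 at 1 µg/mL (2 libraries) for 24 h. CU-T12-9 is a small molecule that activates the Toll-like receptor pair TLR1 and TLR2. The vehicle is DMSO in the sample labels and PBS in the protocol text, so the vehicle libraries are called DMSO and an effect of the solvent cannot be told apart from that of the agonist. The comparison asks how the leukaemic cells respond to a TLR1/2 agonist. All cells are of 1 line. Whether the 2 libraries of each condition are separate cultures is unstated, so p-values and errors reflect the spread between these libraries alone, which may be technical.

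Purine signalling runs from ATP to adenosine. Cells under stress release ATP, which opens P2X channels and activates P2Y receptors. On the cell surface ENTPD1 (CD39) trims ATP and ADP to AMP, and NT5E (CD73) turns AMP into adenosine, which raises cyclic AMP through the ADORA2A and ADORA2B receptors and damps inflammation in myeloid cells. ADA deaminates adenosine and deoxyadenosine to inosine and deoxyinosine. Inside the cell, AMPD enzymes deaminate AMP to IMP, PNP cleaves inosine and guanosine to free bases, and the salvage enzymes HPRT1 and APRT build nucleotides back from those bases.

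Library totals ranged from 23087102 to 25867733 reads, and 1 read was worth 0.0384 to 0.0442 CPM (reads of a gene scaled to a common library size adjusted by the TMM method). All 9 listed myeloid markers were read in each library, and all 9 were called. From DMSO to CU-T12-9, 5 rose: ITGAM 4.18-fold, PTPRC 2.45-fold, CSF1R 1.60-fold, SPI1 1.54-fold and CEBPA 1.36-fold. The other 4 fell: MPO 27.5-fold (150 and 155 reads to 5 and 5), LYZ 1.57-fold, CD33 1.33-fold and FLT3 1.24-fold. MPO passed the filter on low counts only through the DMSO libraries. The part of these markers in the results was not tested. Of 16 markers of other cell types, 5 had no read in any library (the T cell genes CD3D and CD2, the epithelial gene EPCAM, and the haemoglobin genes HBA1 and HBB) and 10 had fewer than 10 reads in each library. The summed level of the 16 markers was 12.2 and 13.01 CPM under DMSO and 7.20 and 7.31 CPM under CU-T12-9, mostly from NCAM1, KRT8 and KRT18, and its part in the results was not tested. In bulk RNA, fewer cells with a transcript and less of it per cell cannot be told apart.

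Stretches before the start sites of AMPD3, ADA and ADORA2B are shown first, because AMPD3 and ADA had the highest fold changes of the 10 genes and because these stretches hold all the motif matches found among the 10. The sequences come from RefSeq (GRCh38.p14), which had entries for 9 of the 10 genes with 19 start sites in all (4 for AMPD3). The counts do not tell which start was used. For both AMPD3 starts shown here, the bases at the start were not found in a GENCODE transcript, unlike those of ADA and ADORA2B. The only AMPD3 start whose bases were found there follows chr11:10450441-10450690, a stretch without a match. The AMPD3 matches therefore lie before starts whose bases an exact search did not find there. Such a search does not show that GENCODE lacks these starts. Each line gives the 250 bases before a start in the direction of transcription, with matches in capitals.
ADA, chr20:44651700-44651949, minus strand: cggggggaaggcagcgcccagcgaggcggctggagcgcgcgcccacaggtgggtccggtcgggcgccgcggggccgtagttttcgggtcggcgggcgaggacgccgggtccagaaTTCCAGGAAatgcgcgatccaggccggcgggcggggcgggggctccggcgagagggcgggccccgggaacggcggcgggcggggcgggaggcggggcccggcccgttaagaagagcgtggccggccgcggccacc
AMPD3, chr11:10455806-10456055, plus strand: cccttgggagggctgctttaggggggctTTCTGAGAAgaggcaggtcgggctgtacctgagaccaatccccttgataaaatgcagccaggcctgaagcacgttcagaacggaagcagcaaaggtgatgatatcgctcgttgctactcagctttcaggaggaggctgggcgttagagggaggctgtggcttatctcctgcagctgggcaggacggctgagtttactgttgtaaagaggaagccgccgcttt
AMPD3, chr11:10455014-10455263, plus strand: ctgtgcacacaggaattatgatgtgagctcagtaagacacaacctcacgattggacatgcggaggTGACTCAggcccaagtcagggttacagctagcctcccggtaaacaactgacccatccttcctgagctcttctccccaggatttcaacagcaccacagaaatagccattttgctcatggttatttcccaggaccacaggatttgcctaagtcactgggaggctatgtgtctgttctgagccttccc
ADORA2B, chr17:15944880-15945129, plus strand: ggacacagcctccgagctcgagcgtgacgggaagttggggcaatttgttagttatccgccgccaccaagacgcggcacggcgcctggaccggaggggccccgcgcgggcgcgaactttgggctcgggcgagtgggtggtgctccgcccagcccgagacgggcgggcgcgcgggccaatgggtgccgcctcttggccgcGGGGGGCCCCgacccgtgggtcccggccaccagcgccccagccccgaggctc

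The capitals in the ADA stretch and in the first AMPD3 stretch mark the letters TTCNNNGAA of the gamma-activated site, which STAT proteins bind. The ADA match, TTCCAGGAA, lay at -135 to -127 from the start, and the AMPD3 match, TTCTGAGAA, at -222 to -214. Such a match was found in 6.57% of the 35116 stretches of this length in the table and in 2 of the 19 of the chosen genes. The capitals in the second AMPD3 stretch mark TGACTCA, an AP-1 site found in 4.20% of all stretches. Those of ADORA2B, GGGGGGCCCC, mark a match to the kappa B consensus of NF-kB that reads on the opposite strand, a motif found in 6.88% of all stretches. The full cyclic AMP response element TGACGTCA and the core of the interferon-stimulated response element had no match in the 19 stretches, against 1.65% and 3.02% of all. Both strands were searched, and no 2 matches overlapped. A match is a description of letters and not evidence of binding.

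In MV4;11 cells under CU-T12-9, AMPD3 was 35.2-fold and ADA 10.3-fold higher than under DMSO, the ATP-gated channels P2RX7 and P2RX4 were 6.06-fold and 3.23-fold higher, and PNP was 2.32-fold lower. AMPD2, the AMP deaminase with the higher level per kb of exon under DMSO, was 1.04-fold lower and not called, and ADORA2B was 1.20-fold lower. ENTPD1, NT5E and ADORA2A were near the limit of detection in every library.

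**Figure D1:**
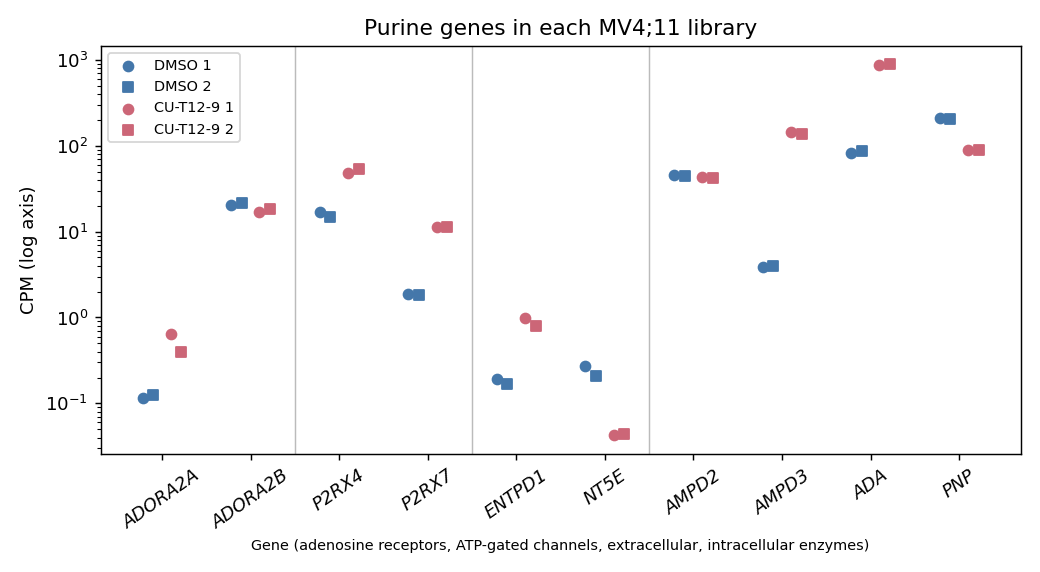
CPM of the 10 purine genes (log axis) in each of the 4 libraries, with DMSO in blue, CU-T12-9 in red, and circles and squares for the first and second library. ADA and AMPD3 sit far higher in both CU-T12-9 libraries and PNP lower, while the AMPD2 points lie nearly level and ENTPD1, NT5E and ADORA2A stay below 1 CPM.

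Of all 14018 genes tested, 65.2% were called at an adjusted p of 0.05, 32% as higher and 33.2% as lower in CU-T12-9. The corresponding shares past a 2-fold change were 11% and 9.29%. Of the 10 purine genes, 8 passed the filter on low counts, 5 being called higher (AMPD3, ADA, P2RX7, ENTPD1 and P2RX4, all over 2-fold) and 2 lower (PNP over 2-fold, and ADORA2B under it), with AMPD2 not called. Since the genes were picked with this comparison in view, nothing is read from that count. ENTPD1 passed the filter only through the CU-T12-9 libraries. ADORA2A and NT5E had too few reads and were not tested.

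Among the intracellular enzymes, AMPD3 had the highest fold change of the 10 genes. AMPD3, the AMP deaminase isoform first known from red blood cells, was counted in 102 and 96 reads with DMSO and in 3341 and 3090 with CU-T12-9, or 3.92 and 4.01 CPM against 143 and 137 CPM. The groups lay far apart and the libraries of each group close together. The log2 fold change was 5.14 (SE 0.08), rank 122 of the 14018 genes tested when ordered by rise.

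AMPD2, the isoform first known from liver, had 46.2 and 44.2 CPM under DMSO and 43.8 and 42.7 CPM under CU-T12-9. The difference was small (log2 fold change -0.06, SE 0.06), though the groups did not overlap. GNAI3, which overlaps AMPD2 on the same strand, had 1969 to 2834 reads per library. AMPD1, the muscle isoform, had no read in any library. AMPD3 thus held 7.82% (95% interval 6.42 to 9.41) and 8.32% (6.79 to 10.1) of the reads of both isoforms, uncorrected for length, under DMSO, and 76.5% (75.3 to 77.8) and 76.2% (74.8 to 77.5) under CU-T12-9. The intervals are exact binomial ones and cover counting error only, as do all those below.

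ADA, the adenosine deaminase whose loss causes severe combined immunodeficiency, had the highest level per kb of the 10 genes under CU-T12-9. Its reads numbered 2127 and 2109 in the DMSO libraries and 20131 and 20025 in the CU-T12-9 libraries, that is 81.7 and 88.1 CPM against 861 and 885 CPM. All 4 libraries kept to their group, and the log2 fold change was 3.36 (SE 0.06). PKIG, a gene that overlaps ADA on the opposite strand, had 29 to 102 reads per library, against at least 2109 of ADA.

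PNP, purine nucleoside phosphorylase, takes the inosine that ADA makes. It had 212 and 203 CPM under DMSO and 90.2 and 88.4 CPM under CU-T12-9 (log2 fold change -1.21, SE 0.05). Both CU-T12-9 libraries lay below both DMSO libraries. In reads, which are not corrected for gene length, there were 0.385 and 0.435 ADA reads per PNP read under DMSO and 9.54 and 10.01 under CU-T12-9.

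**Figure D2:**
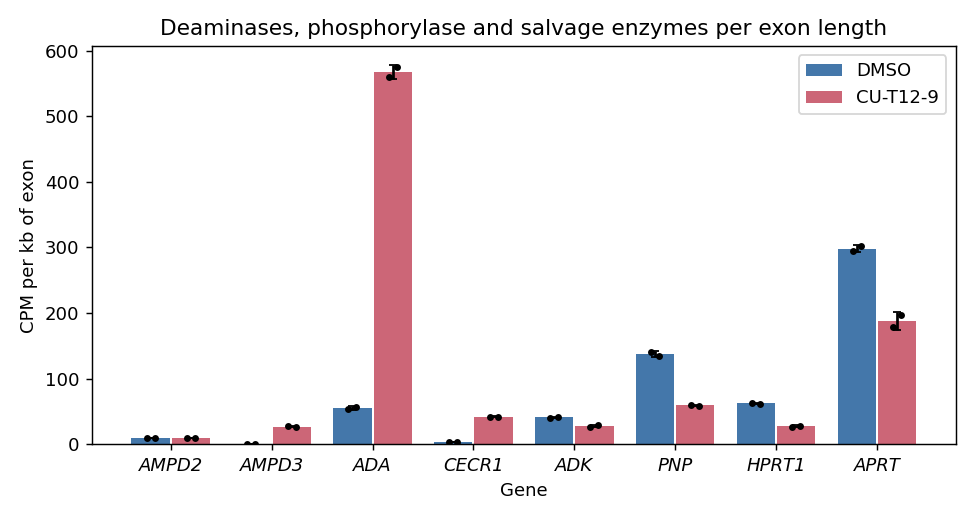
CPM per kb of exon for 8 enzymes of purine breakdown and salvage, as bars for the mean of DMSO (blue) and CU-T12-9 (red) from 0, with ±1 SD (n = 2) and a point for each library. ADA rises above all the others under CU-T12-9, AMPD3 and CECR1 go up from low levels, and ADK, PNP, HPRT1 and APRT go down.

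The rest of the list of purine breakdown and salvage was read from the same fit. It holds 18 genes that are not among the 10, including CECR1, whose product is secreted. Of the 13 tested, 2 rose (15.4%) and 8 fell (61.5%), beside 32% and 33.2% of all genes. The median of their log2 fold changes was -0.45, against 0.00097 over all genes tested. CECR1, which encodes the secreted adenosine deaminase ADA2 of myeloid cells, rose beside ADA. Reads rose from 449 and 454 to 4959 and 4938, a log2 fold change of 3.57 (SE 0.07, adjusted p = 1e-09, edgeR). The number of ADA reads per CECR1 read changed little, from 4.74 and 4.65 to 4.06 and 4.06. The other rise was in SAMHD1, a phosphohydrolase of deoxynucleotides, from 589 ± 9.65 to 748 ± 7.04 CPM (SD, n = 2).

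Of the 8 falls in this list, 4 are named here. HPRT1, which returns hypoxanthine and guanine to nucleotides, went from 87.6 ± 1.47 to 38.5 ± 2.06 CPM, a 2.28-fold fall (adjusted p = 2.79e-07 by the edgeR fit). APRT, its counterpart for adenine, went from 298 ± 5.68 to 188 ± 13.2 CPM, a 1.59-fold fall. ADK, which phosphorylates adenosine to AMP and so shares its substrate with ADA, fell 1.45-fold, from 99.6 ± 1.08 to 68.5 ± 4.39 CPM (edgeR adjusted p = 4.72e-05). There were 0.826 and 0.878 ADA reads per ADK read under DMSO and 13.2 and 12.4 under CU-T12-9. DCK, a kinase of deoxynucleosides, fell 1.45-fold. XDH, xanthine oxidoreductase at the end of the pathway, had no read in any library; it and AMPD1 lie outside the rule for named genes.

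Both chosen ATP-gated channels were higher under CU-T12-9. P2RX7, which opens at high ATP and triggers the release of interleukin-1 beta from primed myeloid cells, went from 49 and 44 reads to 264 and 256. In CPM these were 1.88 and 1.84 against 11.3 and 11.3, with the libraries of each group nearly equal (log2 fold change 2.60, SE 0.14). P2RX4, a channel of higher ATP affinity found also on lysosomes, had 16.8 and 14.7 CPM under DMSO and 48.8 and 52.9 CPM under CU-T12-9. The groups did not overlap and the log2 fold change was 1.69 (SE 0.09). The share of P2RX7 among the reads of both channels went from 10.1% (95% interval 7.55 to 13.1) and 11.1% (8.21 to 14.7) to 18.8% (16.8 to 20.9) and 17.6% (15.7 to 19.7).

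The other P2X genes did not move that way. P2RX1, a fast channel of myeloid cells and platelets, fell 1.25-fold, from 46.2 ± 1.67 to 36.8 ± 3.78 CPM (edgeR adjusted p = 0.00578), and under DMSO it stood above P2RX4 per kb of exon (17.1 ± 0.618 against 7.56 ± 0.72 CPM per kb). P2RX5 fell from 18 and 20 reads to 6 and 7, a call that was lost with DESeq2 (adjusted p = 0.173) and on omission of DMSO library 2 (adjusted p = 0.119) or CU-T12-9 library 1 (adjusted p = 0.0593). P2RX5 passed the filter on low counts only through the DMSO libraries. P2RX6 had 1 to 6 reads per library, and P2RX2 and P2RX3 had none.

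Among the P2Y receptors, with 10 listed, 1 of 5 tested genes rose (20%) and 2 fell (40%), beside 32% and 33.2% of all genes. P2RY2, the receptor for ATP and UTP, had the highest level per kb of this family under DMSO (55.0 ± 2.36 CPM per kb) and fell 3.38-fold. It went from 4223 and 3654 reads to 1074 and 1068, or 157 ± 6.74 to 46.6 ± 0.901 CPM (adjusted p = 1.58e-08 by edgeR, log2 fold change -1.76, SE 0.06). The ADP receptor gene P2RY1 fell 1.65-fold, from 7.95 ± 0.319 to 4.83 ± 0.666 CPM (edgeR adjusted p = 0.00182). P2RY8, which carries the family name but is not known as a nucleotide receptor, rose 1.17-fold to 206 ± 5.51 CPM, and the call was lost without the first (adjusted p = 0.051) or the second DMSO library (adjusted p = 0.0566). P2RY6 (UDP) and P2RY11 (ATP) were not called, with log2 fold changes of 0.12 and -0.17. With CU-T12-9 library 1 left out, P2RY6 was called (adjusted p = 0.0101). P2RY10 had no read under DMSO and 10 and 5 reads under CU-T12-9, at least 5.43-fold higher against a floor of 3 reads per group. P2RY4, P2RY12 and P2RY13 had at most 3 reads in a library and P2RY14 had none.

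Of the adenosine receptors, ADORA2B, which needs more adenosine than ADORA2A to respond, was the only one above 1 CPM per kb of exon under DMSO. Its level was 20.4 and 21.5 CPM in the DMSO libraries and 16.7 and 18.2 CPM in the CU-T12-9 libraries. The groups did not overlap, but the difference was small (log2 fold change -0.26, SE 0.09), and its call was lost with DESeq2 (log2 fold change -0.26) and without the first DMSO (-0.31), the second DMSO (-0.24) or the first CU-T12-9 library (-0.17). ADORA2A, the receptor through which adenosine restrains most leukocytes, went from 3 and 3 reads to 15 and 9. Scaled to library size, the ratio of DMSO to CU-T12-9 was 0.230 (exact 95% interval 0.0769 to 0.578). The gene was called higher in the fit without a filter and in that without the second CU-T12-9 library, and not by DESeq2 or without either DMSO library.

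ADORA3 rose from 12 and 22 reads to 47 and 35 (log2 fold change 1.38, SE 0.35, adjusted p = 0.00682, edgeR), a call lost without the first DMSO library (log2 fold change 0.94, adjusted p = 0.0638). ADORA1 went from 9 and 8 reads to 2 and 2 and was not tested. These 2 receptors lower cyclic AMP, in contrast to the ADORA2A and ADORA2B pair.

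ENTPD1 and NT5E, the surface pair that turns ATP into adenosine, were barely read. ENTPD1 went from 5 and 4 reads to 23 and 18, which is 0.192 and 0.167 CPM against 0.984 and 0.796 CPM (log2 fold change 2.27, SE 0.42). The groups did not overlap. ENTPD1-AS1, a transcript on the opposite strand of the same locus, went from 275 and 286 reads to 214 and 156. Since the strand setting of the counting is unstated, reads from that transcript and from ENTPD1 cannot be told apart where they overlap. NT5E went from 7 and 5 reads to 1 and 1, a ratio of CU-T12-9 to DMSO of 0.181 (exact 95% interval 0.0197 to 0.814).

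Of 16 other genes in the ecto-nucleotidase list, 9 were tested, of which 3 rose (33.3%) and 5 fell (55.6%), beside 32% and 33.2% of all genes. The median of their log2 fold changes was -0.60. ENPP2 (autotaxin), better known for making lysophosphatidic acid than for cleaving nucleotides, rose 3.06-fold to 60.5 ± 1.11 CPM (adjusted p = 9.57e-08, edgeR). The organelle enzymes ENTPD7 and ENTPD4 rose by 0.69 and 0.16 on the log2 scale. The ENTPD4 call was lost in 6 of the 11 alternatives, with the replicate block (adjusted p = 0.0509) among them. ACPP, an acid phosphatase that can also turn AMP into adenosine, fell 2.14-fold, from 32.9 ± 0.535 to 15.4 ± 0.0513 CPM. CD38, which consumes NAD at the cell surface, fell 1.69-fold, from 20.7 ± 0.239 to 12.2 ± 0.469 CPM, and ENTPD6 fell by 0.60 on the log2 scale. DPP4, which anchors ADA to the cell surface, and BST1, a relative of CD38, made up the rest of the falls (log2 fold changes -0.89 and -0.63). These last 2 lie outside the rule for named genes and were added after their values were seen.

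Of 10 tested transporters and channels that carry adenosine, ATP or related molecules across membranes, 3 rose (30%) and 4 fell (40%), beside 32% and 33.2% of all genes. SLC29A1 (ENT1), the main equilibrative carrier of adenosine, fell 3.5-fold. Reads went from 3670 and 3414 to 948 and 914 (log2 fold change -1.81, SE 0.05, adjusted p = 9.2e-09, edgeR). There were 0.58 and 0.618 ADA reads per SLC29A1 read under DMSO and 21.2 and 21.9 under CU-T12-9. SLC29A3, the carrier of lysosomes, rose by 0.68 on the log2 scale, and SLC29A4 fell from 32 and 21 reads to 9 and 4. SLC29A4 passed the filter on low counts only through the DMSO libraries. ABCC4, an exporter of cyclic nucleotides, rose by 0.34 on the log2 scale. LRRC8A, a subunit of volume-regulated anion channels, fell by 0.26, a call lost with DESeq2 (adjusted p = 0.122) and on omission of either DMSO library (adjusted p = 0.0912 and 0.0732). SLC28A3, a concentrative nucleoside carrier, was the remaining fall (log2 fold change -0.61) and was named after its value was seen. The channel gene PANX2 rose from 5 and 8 reads to 83 and 70 (log2 fold change 3.65, SE 0.32). It passed the filter on low counts only through the CU-T12-9 libraries. PANX1, the pannexin known to release ATP, was not called (log2 fold change 0.11, SE 0.09) and was named after its values were seen.

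Behind the ADORA2A and ADORA2B receptors, 10 of 21 tested genes of the cyclic AMP arm rose (47.6%) and 6 fell (28.6%). The shares over all genes were 32% and 33.2%. The median log2 fold change of the 21 was -0.10. PDE4B, a phosphodiesterase that degrades cyclic AMP in myeloid cells, rose 16.7-fold. Reads went from 211 and 185 to 3045 and 3040, or 7.91 ± 0.265 to 132 ± 2.93 CPM (adjusted p = 7.54e-10 by edgeR, log2 fold change 4.06, SE 0.07). The other listed phosphodiesterases were mixed. PDE4A rose by 0.58 on the log2 scale, PDE4D fell by 0.95, and PDE7A fell from 162 ± 1.40 to 103 ± 0.208 CPM. PDE3B, at 155 ± 4.51 CPM under DMSO, was not called. PDE4A, PDE4D, PDE7A and PDE3B were named after their values were seen. The listed adenylyl cyclase genes were mixed too. ADCY7 rose by 0.53 and ADCY6 by 1.28 on the log2 scale, ADCY9 fell by 0.53 and ADCY3 by 0.41, and ADCY4 was not called. The regulatory subunit genes PRKAR1A and PRKAR2B rose by 0.42 and 1.14 on the log2 scale. ADCY3, ADCY4, ADCY6, ADCY9 and PRKAR2B were named after their values were seen. GNAS, the G protein subunit that couples these receptors to cyclase, fell by 0.24, and GNAI2, the inhibitory subunit, rose by 0.29. NR4A1, a gene that cyclic AMP induces, fell by 1.05. Its call was lost with DESeq2 (adjusted p = 0.107) and without the second DMSO (log2 fold change -0.96) or the first CU-T12-9 library (-0.59). NR4A3, in the same list, went the other way, from 7 and 1 reads to 19 and 29 (log2 fold change 2.67, SE 0.58). NR4A3, which is among the 10 rises, passed the filter on low counts only through the CU-T12-9 libraries. NR4A2 and CREM were not called (log2 fold changes -0.34 and -0.10). NR4A2, NR4A3 and CREM were named after their values were seen.

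**Figure D3:**
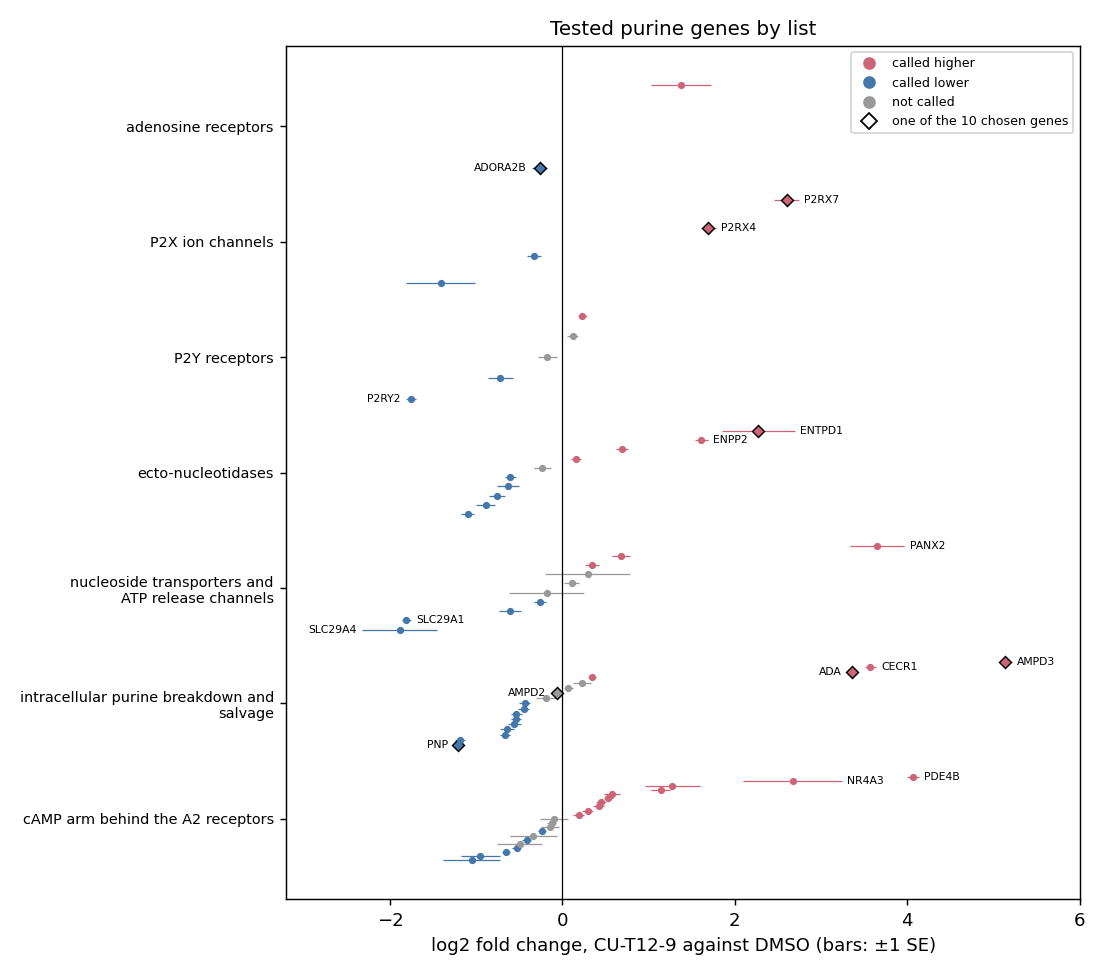
Log2 fold changes (CU-T12-9 against DMSO, bars ±1 SE) of all tested purine genes in 7 lists, in red where called higher, blue where called lower, grey where not called, and with diamonds for the 10 chosen genes. AMPD3, PDE4B, PANX2, CECR1 and ADA lie farthest to the right, and SLC29A4, SLC29A1 and P2RY2 farthest to the left.

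Over the 7 lists, 84 purine genes were not among the 10, and 61 of them were tested. Of these, 20 rose (32.8%) and 27 fell (44.3%), beside the 32% and 33.2% over all genes, and their median log2 fold change was -0.19.

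Levels can be compared between genes only per length, here as CPM per kb of exon. Under DMSO, PNP stood highest of the 10 at 137 ± 4.39, followed by ADA at 55.1 ± 2.95, ADORA2B at 12.1 ± 0.457, AMPD2 at 9.65 ± 0.302 and P2RX4 at 7.56 ± 0.72 (SD, n = 2). AMPD3 followed at 0.763 ± 0.0127 and P2RX7 at 0.360 ± 0.00598, while NT5E, ADORA2A and ENTPD1 lay between 0.0329 and 0.0563. Under CU-T12-9 the order changed. ADA led at 567 ± 11.1, followed by PNP at 59.2 ± 0.861, AMPD3 at 26.9 ± 0.859 and P2RX4 at 24.5 ± 1.41. ADORA2B at 10.1 ± 0.589 and AMPD2 at 9.24 ± 0.166 came next, and these neighbours changed places when the longest transcript was taken as the length. P2RX7 stood at 2.19 ± 0.0034. At the bottom, the libraries of ADORA2A (0.217 and 0.135) and ENTPD1 (0.180 and 0.146) overlapped, and NT5E was lowest at 0.0103.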

How the data were processed

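RNA-seq of 4 MV4;11 libraries was used. Values are raw read counts for each gene, in 1 table that the authors deposited. Per the submitters' processing notes, FastQC 0.11.7, TopHat2 and featureCounts 1.5.2 were used with GRCh37. The sources used here do not give the annotation, strand setting or handling of reads with several matches.

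Counts were analysed in R 4.3.3 with edgeR 4.0.16: default expression filter (14018 genes kept), TMM factors, quasi-likelihood F-test with group as the only term, and p-values adjusted by Benjamini-Hochberg across the tested genes, with a threshold of 0.05. "Rose", "fell" and "called" refer to this threshold. SE was taken as the size of the log2 fold change over the root of F. The fitting step was tested on simulated data. Libraries within a group differed beyond sampling noise (chi-square per degree of freedom 2.42 and 7.03), which does not show whether they are separate cultures. All 4 were counted.

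The 10 genes and the lists were chosen with earlier results of these data known. In each list the largest called rise and fall, up to 4 more called genes of highest CPM, and all receptors were named. Exon lengths came from GENCODE release 29 (GRCh38), another build than that of the counts, so levels per kb are approximate. The 11 alternatives were other scalings, filters and tests (DESeq2 1.42.0, limma 3.58.1), a replicate block, and leaving out each library. 1 gene of a list added after the data were seen is not reported here.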

Additional observations from a re-analysis of the deposited data

How the results depend on the processing

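The labels number the libraries 1 and 2 in both groups, but the deviations of same-numbered libraries were hardly related (correlation 0.0099 across genes). This value over all genes could miss an effect shared by few genes. Whether the numbers mark pairs is therefore not decided by it. With the replicate number as a block, 9143 genes were called in place of 9135, 7 of the 10 purine genes as before, and 46 of the other purine genes in place of 47. Over the 11 alternatives, 7281 (DESeq2) to 9908 (without the second CU-T12-9 library) genes were called, 6 to 8 of the 10 purine genes and 42 to 51 of the others. Other scalings moved the median log2 fold change of all genes by at most 0.015. The log2 fold change ranged from 5.11 to 5.17 for AMPD3, 3.30 to 3.41 for ADA, 2.57 to 2.63 for P2RX7, 1.59 to 1.78 for P2RX4, 2.14 to 2.42 for ENTPD1, -1.26 to -1.19 for PNP, -0.11 to -0.04 for AMPD2 and -0.32 to -0.17 for ADORA2B. Of these 8 genes, ADORA2B lost its call in 4 alternatives (DESeq2 and the omission of any library but the second CU-T12-9 one), and the cause was not tested. ENTPD1 was not tested with a filter of 1 CPM. Without a filter, NT5E was not called (log2 fold change -2.34). In fits that leave 1 library in a group, that library is assumed to vary like the other group. At this depth 3 reads corresponded to 0.115 to 0.133 CPM, so levels of ENTPD1, NT5E and ADORA2A rest on few reads.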

Other observations

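Enzymes that feed AMP and adenosine into these steps were looked up after the data had been seen. Of 7 genes looked at in the adenylate kinase family, whose enzymes exchange phosphate between nucleotides, 4 rose (57.1%) and 2 fell (28.6%) in the edgeR fit. Of all genes tested, 32% rose and 33.2% fell. The rises of AK1 (16 and 12 to 25 and 21 reads), AK7 (4 and 5 to 14 and 13 reads) and AK8 rested on few reads. AK7 and AK8 passed the filter only through the CU-T12-9 libraries. AK5 fell from 5.99 ± 0.266 to 1.63 ± 0.177 CPM (SD, n = 2; log2 fold change -1.88, SE 0.18). AK8 had no read under DMSO and 37 over both CU-T12-9 libraries, at least 13.4-fold higher against a floor of 3 reads per group. AK9 rose from 4.21 ± 0.344 to 8.04 ± 1.75 CPM.

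AHCY, which releases adenosine from S-adenosylhomocysteine, fell 1.27-fold, with 345 ± 3.11 CPM under DMSO and 271 ± 10.6 CPM under CU-T12-9. Its relative AHCYL2 rose from 14.3 ± 0.88 to 23.2 ± 0.658 CPM, and AHCYL1 was not called (104 ± 2.46 and 103 ± 0.533 CPM).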
